A study of Mus musculus with 12 samples.

Results

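C2C12 myotubes that received ginsenoside Rc (gRc) and then H2O2 were compared with myotubes that received vehicle alone. The 6 libraries of the comparison, of 12 in all, were taken by their labels, 3 of gRc+H2O2 and 3 of vehicle, and their deposited expected counts were tested over 14838 genes. The question was how far pretreated and stressed cells remained from the unstressed state. C2C12 is a mouse myoblast line from a commercial repository that fuses into myotubes when serum is lowered, here over 5 days in 2% horse serum, although the cell-type tag of the libraries reads myoblasts. The vehicle group had 0.02% DMSO for 24 h. The gRc+H2O2 group had 10 µM gRc for 18 h and then 0.25 mM H2O2 for 6 h, while a treatment tag on those libraries gives 24 h of gRc pretreatment. The other 6 libraries, 3 with gRc alone for 24 h and 3 with H2O2 for 6 h after 18 h of vehicle, entered the same fit and are used below for the comparison with H2O2 alone. All groups come from 1 cell line in culture, with no motor nerve, blood vessel or immune cell, and since no label states if the replicates were grown as separate cultures, p-values here gauge only how these libraries scatter, which can be partly technical.

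Hydrogen peroxide crosses membranes and oxidizes thiols, and cells answer it through several transcriptional programs. NRF2 drives genes for glutathione and thioredoxin, ATF4 drives the integrated stress response (amino acid uptake, amino acid synthesis and the stress factors ATF3 and CHOP), and p53 drives growth arrest and death genes. In skeletal muscle, oxidant stress is also known for loss of contractile protein and of mitochondria. Ginsenoside Rc is a saponin of ginseng root.

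Total expected counts ran from 19274762 to 31409066 per library. Differentiated muscle genes were abundant in both groups. Myh3, the embryonic myosin heavy chain, stood at 5507, 5326 and 2773 CPM (counts relative to library size, scaled by TMM factors) in vehicle replicates 1, 2 and 3 and at 2321, 2288 and 3417 CPM in the gRc+H2O2 libraries, given in the same order here and throughout. Acta1, Ckm, Tnnt3, Myog and the fusion gene Mymk were also abundant in every library of both groups, and the lowest of their values was 269 CPM, for Mymk in vehicle replicate 1. Markers of endothelium (Pecam1, Cdh5, Kdr), leukocytes (Ptprc, Adgre1), adipocytes (Adipoq, Plin1, Fabp4) and neurons (Rbfox3, Snap25) had at most 12 raw counts in any of the 6 libraries, and Thy1 and Snap25 had 0. Within these, Pecam1 had 0 to 3 counts with vehicle and 7 to 12 with gRc+H2O2, Adipoq 0 and 4 to 7, and Fabp4 0 to 2 and 0. The leukocyte marker Csf1r and the neuronal marker Syp passed the filter at low levels. Csf1r stood at 0.166 to 0.321 CPM with vehicle and 0.333 to 0.717 CPM with gRc+H2O2, and Syp at 0.464 to 0.666 and 0.834 to 1.43 CPM. The 1 tested member of the adipocyte list, Pparg, a nuclear receptor, stood at 3.88, 3.77 and 4.57 CPM with vehicle and 7.97, 8.3 and 7.88 CPM with gRc+H2O2 and rose by 0.98 (adjusted p = 0.00519, SE 0.18). The 3 tested members of the macrophage and leukocyte list summed to 5.49 to 6.43 CPM with vehicle and 6.47 to 8.15 CPM with gRc+H2O2, and 0 of them were called. The neuronal list reached 24.6 to 45.0 summed CPM in these 6 libraries through its member Stmn2. The fibroblast-like collagen gene Col1a1 was unequal among the vehicle libraries, at 9557, 2037 and 949 CPM, against 1246, 857 and 1418 CPM with gRc+H2O2.

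The vehicle libraries stood farther apart than those of the pretreated and stressed cells. In a principal component analysis of log2 CPM, component 1 (43.1% of the variance) placed vehicle replicate 1 at -68.6 and vehicle replicate 3 at 82.3, beside replicate 3 of gRc alone at 84.2. Component 2 (31.7%) held every vehicle and gRc library between 21.0 and 72.0 and every library with H2O2 between -45.1 and -19.6, with the gRc+H2O2 libraries at -45.1 to -40.3. The distance between 2 libraries, taken as the root mean square of their log2 differences over the tested genes, was 0.786 to 1.34 within vehicle and 0.376 to 0.517 within gRc+H2O2. Between the groups it was 0.696 to 1.26 over 9 pairs, a range that overlaps the one within vehicle. Fold changes were therefore also taken without vehicle replicates 1 and 3 and gRc replicate 3 together. That fit keeps 1 vehicle library, so only its effect sizes are given.

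**Figure D1:**
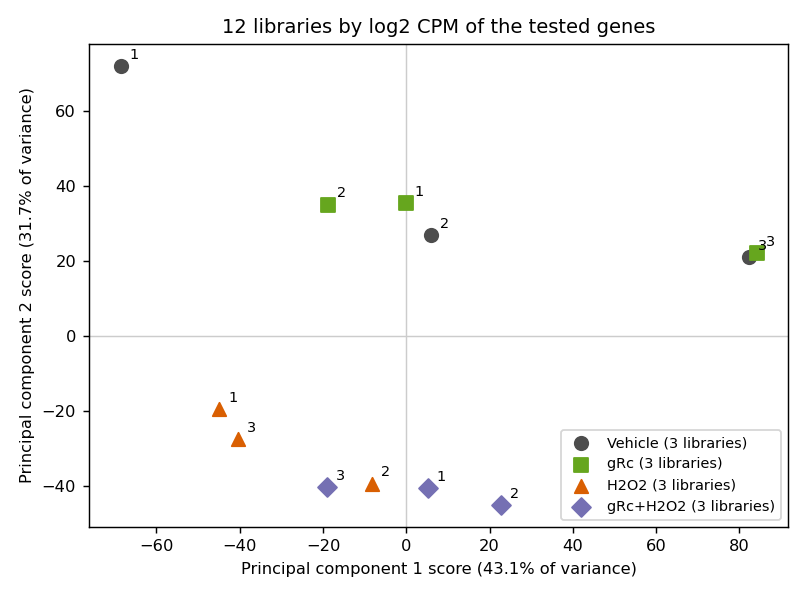
Scores of the 12 libraries on principal components 1 and 2 of log2 CPM; each point is a library, the number beside it is its replicate, and shape and colour give the group. The gRc+H2O2 libraries lie between -45.1 and -40.3 on component 2, away from all vehicle and gRc libraries, while vehicle replicates 1 and 3 lie at opposite ends of component 1.

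Pretreated and stressed myotubes differed from vehicle in 2588 of the 14838 genes (17.4%) at an adjusted p under 0.05 from edgeR's quasi-likelihood test. Of all genes tested, 1269 were higher (8.55%) and 1319 lower (8.89%), the shares to set beside each list count below. The mitochondrial rRNAs mt-Rnr1 and mt-Rnr2 and the nuclear genes Gdf15, Atf3, Gsta1, Cth, Foxq1 and Gsta4 had the largest rises among the genes named by the rule, and the transcription regulators Scml4 and Mxd3 and the collagen gene Col13a1 were among the largest falls. Of these genes 1108 (7.47%) changed at least 2-fold, 530 upward (3.57%) and 578 downward (3.9%). The median size of change among the 2588 genes was 0.91 on the log2 scale and the 90th percentile was 1.94, while the median over all genes tested was -0.05. The fit without vehicle replicates 1 and 3 and gRc replicate 3 keeps 1 vehicle library, so its number of calls is not given. Leaving out gRc+H2O2 replicate 1, 2 or 3 gave 1351, 1294 and 1419 calls, and leaving out vehicle replicate 1, 2 or 3 gave 2430, 2232 and 2865. With only vehicle and gRc+H2O2 libraries in the fit 992 genes were called, and with limma on log2 TPM 1568.

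Gdf15, a secreted stress signal at chr8:70629393-70632456 on GRCm38, had the largest rise of a nuclear gene among those whose mean log2 CPM was 2 or more. It stood at 4.44, 5.05 and 5.35 CPM with vehicle and at 90.2, 96.8 and 107 CPM with gRc+H2O2, a log2 fold change of 4.3 (adjusted p = 2.16e-07, SE 0.15), or 19.7-fold. The 3 libraries within a group lay close together. Gsta1, a glutathione transferase, rose from 2.11, 2.21 and 2.43 to 30.8, 25.8 and 26 CPM, by 3.61 on the log2 scale (adjusted p = 3.96e-07, SE 0.15). Its relative Gsta4, which detoxifies lipid peroxidation products, rose from 20.3, 16.4 and 11.1 to 179, 144 and 175 CPM, by 3.38 (adjusted p = 0.000189, SE 0.35). The 8 largest rises and 8 largest falls were taken from called genes whose groups did not overlap, so their separation follows from that choice. Foxq1, a forkhead transcription factor, rose from 6.82, 5.64 and 6.03 to 58.3, 66.6 and 81.3 CPM (log2 fold change 3.48, adjusted p = 6.31e-06, SE 0.2). Atf3, Cth and the 2 mitochondrial rRNAs complete the 8 largest rises and are described with their groups.

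Scml4, a Polycomb-type protein gene at chr10:42860370-42960780, had the smallest SE of the 8 largest falls. Its level was 29.5, 28.4 and 27.3 CPM with vehicle and 4.17, 4.89 and 4.94 CPM with gRc+H2O2, and it fell by 2.6 on the log2 scale (adjusted p = 7.30e-06, SE 0.15), or 6.08-fold. The 3 libraries of each group lay close together, while lack of overlap was a condition of the choice. Smim5, a small membrane protein gene, fell by 2.83 (adjusted p = 0.000329, SE 0.32), Fam78a by 2.63 (adjusted p = 0.000172, SE 0.27) and Mxd3, a MAX-binding repressor, by 2.69 (adjusted p = 0.00324, SE 0.46). Nrep fell from 121, 74.7 and 52.6 to 19, 15.5 and 16 CPM (-2.3, SE 0.31, adjusted p = 0.00088) and the transmembrane collagen Col13a1 from 13.4, 8.54 and 3.89 to 1.83, 1.1 and 2.11 CPM (-2.35, SE 0.5, adjusted p = 0.00948). Both of these had their highest vehicle value in replicate 1. Gm10222, which resembles a mitochondrial gene and whose reads can be shared with it, had the largest fitted fall (-7.05, SE 2.11) but stood at 3.94, 4.18 and 103 CPM in the vehicle libraries, and its call (adjusted p = 0.0423) was lost without vehicle replicate 3 or gRc+H2O2 replicate 1, 2 or 3 (adjusted p of 0.0832 to 0.143).

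**Figure D2:**
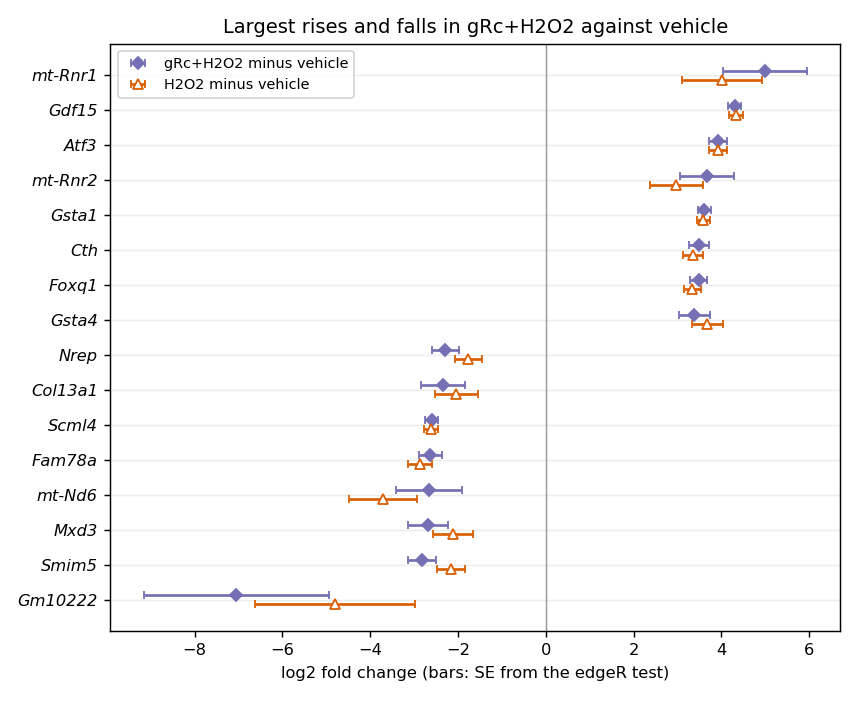
Log2 fold changes against vehicle of the 8 largest rises and 8 largest falls in gRc+H2O2 (diamonds), with H2O2 alone beside them (open triangles); bars are SE from the edgeR test. The genes were chosen on the gRc+H2O2 values, both comparisons use the same 3 vehicle libraries, and the bars of Gm10222 and the mitochondrial genes are the widest.

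The genes of the integrated stress response (ISR) and of amino acid supply were among the most raised groups in pretreated and stressed cells. Of 16 ISR factors and effectors tested, 13 rose and 0 fell, with a median log2 fold change of 1.89 against -0.05 over all genes, and 8.55% of all genes rose. Of 21 genes of amino acid synthesis and transport, 15 rose and 0 fell (median 1.16). Of 13 cytosolic tRNA synthetases, 8 rose and 0 fell (median 0.79). The first list kept 12 to 13 rises when each of the 6 libraries was left out in turn and the second 13 to 16. The synthetases had 3 rises without gRc+H2O2 replicate 1 or 3, 4 without gRc+H2O2 replicate 2 or vehicle replicate 2 and 5 without vehicle replicate 3.

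Atf3, a stress-induced transcription factor at chr1:191170296-191218039 on the minus strand, stood at 4.33, 5.26 and 4.53 CPM with vehicle and 62.1, 64.3 and 88.7 CPM with gRc+H2O2, and rose by 3.93 on the log2 scale (adjusted p = 3.12e-06, SE 0.2). Ddit3, which encodes CHOP, rose from 11.4, 16.7 and 16.6 to 86.3, 83.5 and 116 CPM, by 2.67 (adjusted p = 5.76e-05, SE 0.22). The third gRc+H2O2 library was the highest of its group for both genes. Ppp1r15a, which encodes the phosphatase subunit GADD34 that ends the response, rose from 35.9, 46.5 and 46.8 to 206, 213 and 257 CPM, by 2.38 (adjusted p = 9.82e-06, SE 0.15). Chac1, a glutathione-degrading enzyme, rose by 2.11 (adjusted p = 8.95e-05, SE 0.19) and Vldlr, a lipoprotein receptor, by 2.13 (adjusted p = 4.52e-05, SE 0.17).

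The promoters of 3 of the 6 ISR genes named here hold the same run of letters. They are shown because these genes rose and their promoters hold a match, so a match in each follows from that choice. The letters searched were TGATGNAA and its reverse complement TTNCATCA, the form of the C/EBP-ATF response element, on both strands over the 250 bases before the start. Sequences are from RefSeq (GRCm38.p6), 5′ to 3′ on the strand of the gene, with the match in capitals. The windows are chr1:191183334-191183583, minus strand (Atf3), chr19:27216770-27217019, plus strand (Vldlr) and chr2:119350992-119351241, plus strand (Chac1).
Atf3: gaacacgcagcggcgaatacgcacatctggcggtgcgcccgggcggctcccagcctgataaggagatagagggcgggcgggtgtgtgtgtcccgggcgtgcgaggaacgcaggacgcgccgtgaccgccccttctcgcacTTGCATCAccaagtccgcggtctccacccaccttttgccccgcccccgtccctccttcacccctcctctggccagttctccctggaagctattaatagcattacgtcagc
Vldlr: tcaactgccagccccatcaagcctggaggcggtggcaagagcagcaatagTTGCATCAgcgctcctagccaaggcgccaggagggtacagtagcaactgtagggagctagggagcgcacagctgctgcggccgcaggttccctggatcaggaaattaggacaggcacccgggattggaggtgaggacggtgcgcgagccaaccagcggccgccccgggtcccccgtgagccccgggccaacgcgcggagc
Chac1: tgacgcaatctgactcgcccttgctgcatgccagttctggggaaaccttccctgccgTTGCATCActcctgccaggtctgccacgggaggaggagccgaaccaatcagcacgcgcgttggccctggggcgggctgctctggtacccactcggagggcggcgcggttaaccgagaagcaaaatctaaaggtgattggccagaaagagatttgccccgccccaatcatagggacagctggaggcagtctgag
Each match reads TTGCATCA. Over the whole lists, 5 of 19 windows of ISR genes (26.3%), 4 of 21 of amino acid genes (19.05%) and 3 of 7 of tRNA synthetases (42.9%) held the letters, against 3.45% of 32851 windows of all genes. All 16 ISR genes, 17 of 22 listed amino acid genes and 7 of 13 synthetases had a window. The amino acid genes with a match were Asns, which rose, and Got1, Pycr1 and Slc7a11, which were not called. The ISR genes (Atf3, Chac1, Fgf21, Nupr1, Vldlr) and synthetases (Aars, Gars, Tars) with a match rose. The amino acid list was drawn up as ATF4 targets, and ATF4 drives the ISR, so a higher share of this element can come from the choice of lists. A match is a run of letters, and binding was not measured.

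Among amino acid genes, Cth, which makes cysteine from cystathionine, rose most of the named members, from 1.44, 1.07 and 1.61 CPM with vehicle to 15.1, 17.4 and 13.6 CPM with gRc+H2O2 (log2 fold change 3.48, adjusted p = 1.12e-05, SE 0.23). Slc3a2, the heavy chain shared by several amino acid exchangers, rose from 202, 173 and 187 to 599.8, 605 and 694 CPM, by 1.76 (adjusted p = 5.41e-05, SE 0.14), and its light chain Slc7a5, which carries leucine, from 167, 126 and 145 to 385, 409 and 385 CPM, by 1.43 (adjusted p = 0.000364, SE 0.16). The pair moved upward in every gRc+H2O2 library without overlap. The arginine and lysine carrier Slc7a1 rose by 1.77 (adjusted p = 0.000103, SE 0.16), the proline enzyme Aldh18a1 by 1.16 (adjusted p = 0.000116, SE 0.11) and the serine and alanine carrier Slc1a4 by 1.11 (adjusted p = 0.000131, SE 0.11). Of the synthetases, the seryl enzyme gene Sars rose from 277, 321 and 238 to 637, 642 and 706 CPM (log2 fold change 1.25, adjusted p = 0.00246, SE 0.2), while Wars rose by 0.79 (adjusted p = 0.00716, SE 0.16). On log2 TPM with limma the Wars difference was 0.49 (adjusted p = 0.216).

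Genes of glutathione and thioredoxin supply were raised. Of 26 NRF2 targets tested, 14 rose and 0 fell (median 0.90; 11 to 16 rises with 1 library left out). Srxn1, sulfiredoxin, which repairs oxidized peroxiredoxins, rose from 22.4, 26.2 and 28.5 to 146, 153 and 166 CPM, by 2.59 on the log2 scale (adjusted p = 3.12e-06, SE 0.13). Gclm, the regulatory subunit of the first enzyme of glutathione synthesis, rose from 23.8, 28.2 and 28.5 to 102, 113 and 108 CPM, by 2.0 (adjusted p = 7.30e-06, SE 0.12). Txnrd1, thioredoxin reductase, rose from 128, 149 and 113 to 555, 556 and 650.1 CPM, by 2.18 (adjusted p = 4.89e-05, SE 0.17). In these 3 genes the lowest gRc+H2O2 library was far above the highest vehicle library. Pgd, an enzyme of the pentose phosphate pathway that yields NADPH, rose by 1.58 (adjusted p = 9.19e-05, SE 0.14), Osgin1, an oxidative stress induced growth inhibitor gene, by 1.82 (adjusted p = 2.45e-05, SE 0.13) and Sqstm1, which encodes the autophagy receptor p62, by 1.82 (adjusted p = 0.000699, SE 0.23).

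Genes of the enzymes that remove peroxide and superoxide were mostly not called. Of 20 scavenger genes tested, 1 rose, 1 fell and 18 missed the threshold (median 0.04). Their summed level was 2067 to 2374 CPM with vehicle and 2551 to 2713 CPM with gRc+H2O2, without overlap. Prdx6, a peroxiredoxin of lipid peroxides, rose by 0.85 (adjusted p = 0.0279, SE 0.23) and Glrx, glutaredoxin, fell by 0.62 (adjusted p = 0.0415, SE 0.19). The Prdx6 call was lost without vehicle replicate 2 or 3 or gRc+H2O2 replicate 1, 2 or 3 (adjusted p of 0.072 to 0.107) and the Glrx call without vehicle replicate 2 or 3 or gRc+H2O2 replicate 1, 2 or 3 (adjusted p of 0.0648 to 0.117). Of 4 metallothionein and zinc export genes 2 rose. Mt1, a metal-binding thiol protein, stood at 92.2, 281 and 237 CPM with vehicle, lowest in replicate 1, and at 826, 986 and 916 CPM with gRc+H2O2, and rose by 2.16 (adjusted p = 0.00416, SE 0.39). The zinc exporter Slc30a1 rose by 1.04 (adjusted p = 0.0069, SE 0.21).

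Targets of p53 had the second highest median after the ISR among lists with at least 9 genes tested. Of 28 tested, 18 rose and 0 fell, with a median of 1.23, and 12 to 19 rose when 1 library was left out. Plk2, a kinase induced by DNA damage, rose from 131, 119 and 118 to 375, 458 and 506 CPM, by 1.87 on the log2 scale (adjusted p = 3.22e-05, SE 0.14). Sesn2, a stress-induced inhibitor of mTORC1 that also belongs to the ISR list, rose from 14.6, 12.6 and 20.9 to 89.2, 102 and 116 CPM, by 2.67 (adjusted p = 0.000131, SE 0.25). Zmat3, an RNA-binding p53 target, rose from 21.5, 22.3 and 15.1 to 64.7, 62.4 and 69.7 CPM, by 1.74 (adjusted p = 0.000147, SE 0.17). All 3 separated the groups without overlap. The others named were Plk3 (1.5, SE 0.14), Ddit4l (1.54, SE 0.16) and the apoptosis nuclease gene Aen (1.26, SE 0.14), with adjusted p of 0.000131, 0.000214 and 0.000274.

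Death genes of the BCL2 family moved both ways. Of 14 tested, 3 rose and 2 fell (median 0.16), and of 16 caspase and apoptosome genes 1 rose and 0 fell (median -0.22). Bcl2l11, which encodes the death promoter BIM, rose from 7.21, 5.84 and 6.56 to 20.6, 22.2 and 22.3 CPM, by 1.73 (adjusted p = 0.000116, SE 0.16). The survival gene Bcl2 fell from 11.9, 11.5 and 14.6 to 5.54, 5.9 and 4.68 CPM, by 1.24 (adjusted p = 0.0032, SE 0.21), while Bmf, a further death promoter, also fell, by 1.17 (adjusted p = 0.00139, SE 0.17). Thus members with opposite roles fell together. Apaf1, the scaffold of the apoptosome, rose by 0.85 (adjusted p = 0.0049, SE 0.16). On log2 TPM with limma, the differences of Bmf and Apaf1 were -0.67 (adjusted p = 0.223) and 0.32 (adjusted p = 0.751). Bbc3, which encodes PUMA, rose by 1.2 (adjusted p = 0.0426, SE 0.36) and lost the call without vehicle replicate 2 or 3 or gRc+H2O2 replicate 1, 2 or 3 (adjusted p of 0.0816 to 0.158). Bid, a death promoter cleaved by caspases, rose by 0.42 (adjusted p = 0.0416, SE 0.12) and lost the call without vehicle replicate 2 or 3 or gRc+H2O2 replicate 1, 2 or 3 (adjusted p of 0.0749 to 0.156). Bcl2l11 kept its call with each library left out.

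Rapid-response and growth-signal genes were partly raised. Of 18 immediate early genes 4 rose and 1 fell (median 0.37), and of 10 AP-1 factors 4 rose (median 0.61). Myc stood at 19.6, 36.7 and 40.6 CPM with vehicle, lowest in replicate 1, and at 152, 169 and 159 CPM with gRc+H2O2, and rose by 2.31 (adjusted p = 0.000327, SE 0.26). Fosl1, an AP-1 subunit, rose from 11, 14.2 and 13.3 to 74.3, 87.8 and 97.5 CPM, by 2.75 (adjusted p = 0.000131, SE 0.26), and the nuclear receptors Nr4a3 and Nr4a1 rose by 1.73 (adjusted p = 0.00343) and 1.22 (adjusted p = 0.00499). Egr2, a zinc finger factor of the same list, fell by 0.66 (adjusted p = 0.00745, SE 0.13). Among 19 EGF receptor ligands and MAP kinase feedback genes 5 rose and 1 fell (median 0.19). The EGF receptor ligand Areg rose by 3.02 (adjusted p = 0.000218, SE 0.32) from 0.666, 1.21 and 0.535 CPM with vehicle to 5.54, 6.25 and 8.07 CPM, and Ereg by 2.26 (adjusted p = 0.00897, SE 0.48), whereas Spry1, an inhibitor of growth factor signalling that is also a marker of reserve cells, fell from 27.7, 28.9 and 31.6 to 10.4, 8.87 and 8.37 CPM, by 1.68 (adjusted p = 4.89e-05, SE 0.13).

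Inflammatory genes moved both ways, and 8 interferon-stimulated genes rose. Of 18 NF-kB feedback and chemokine genes 5 rose and 2 fell (median 0.07). Ptgs2, cyclooxygenase 2, rose from 7.54, 16.5 and 22 to 100.4, 107 and 101 CPM, by 2.74 (adjusted p = 0.000488, SE 0.33), and the chemokine gene Cxcl12 fell from 21.4, 34.8 and 54.4 to 18, 16.2 and 10.9 CPM, by 1.29 (adjusted p = 0.0185, SE 0.32), a call lost without gRc+H2O2 replicate 2 or 3 (adjusted p of 0.0529 to 0.0685). The list had 3 rises without gRc+H2O2 replicate 2 or 3. Of 17 interferon-stimulated genes 8 rose, 0 fell and 9 did not pass (median 0.46; 6 to 8 rises with 1 library left out). Their summed level overlapped, at 130 to 173 CPM with vehicle and 151 to 172 CPM with gRc+H2O2. Irf9, a subunit of the factor that drives this program, rose from 9.43, 10.9 and 10.9 to 22, 24.6 and 23 CPM, by 1.16 (adjusted p = 0.000274, SE 0.13). Ifit1 stood at 0.721, 0.207 and 0.0713 CPM with vehicle and 1.9, 5.11 and 2.6 CPM with gRc+H2O2, so its rise of 3.37 (adjusted p = 0.0095, SE 0.72) was one between low levels. The summed level of the leukocyte list, given above, was low and did not overlap between groups, and its part in the interferon-stimulated genes was not tested.

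Few genes of the protein folding lists passed the test. Of 22 genes of the endoplasmic reticulum unfolded protein response 3 rose (median 0.39), while in 11 every gRc+H2O2 library lay above every vehicle library, against 18.2% of all genes. Their summed level was 4959 to 8443 CPM with vehicle and 8962 to 10287 CPM with gRc+H2O2. Of 16 cytosolic heat shock chaperones 1 rose (median 0.10). The former list had 5 rises without vehicle replicate 2, and its median was 0.18 without vehicle replicate 3. Herpud1, a gene of protein disposal at the endoplasmic reticulum, rose by 0.97 (adjusted p = 0.00111, SE 0.14), the stress sensor Ern1 by 0.68 (adjusted p = 0.00175, SE 0.1) and the chaperone partner Dnajb4 by 0.91 (adjusted p = 0.00109, SE 0.13). In contrast, 13 of 24 ribosome biogenesis genes rose and 0 fell (median 0.82; 11 to 16 rises with 1 library left out). Nop58, a core protein of small nucleolar particles, rose from 80.3, 116 and 85.3 to 284, 264 and 243 CPM, by 1.49 (adjusted p = 0.000847, SE 0.2), and the processome subunit Utp20 from 55.9, 59.4 and 57.1 to 123, 121 and 117 CPM, by 1.06 (adjusted p = 0.000236, SE 0.11). Of 29 proteasome subunits 5 rose and 0 fell (median 0.29), among them Psmd11 (1.09, SE 0.14, adjusted p = 0.000752), and 1 rose when any gRc+H2O2 library was left out, against 2, 5 and 4 without vehicle replicate 1, 2 and 3.

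**Figure D3:**
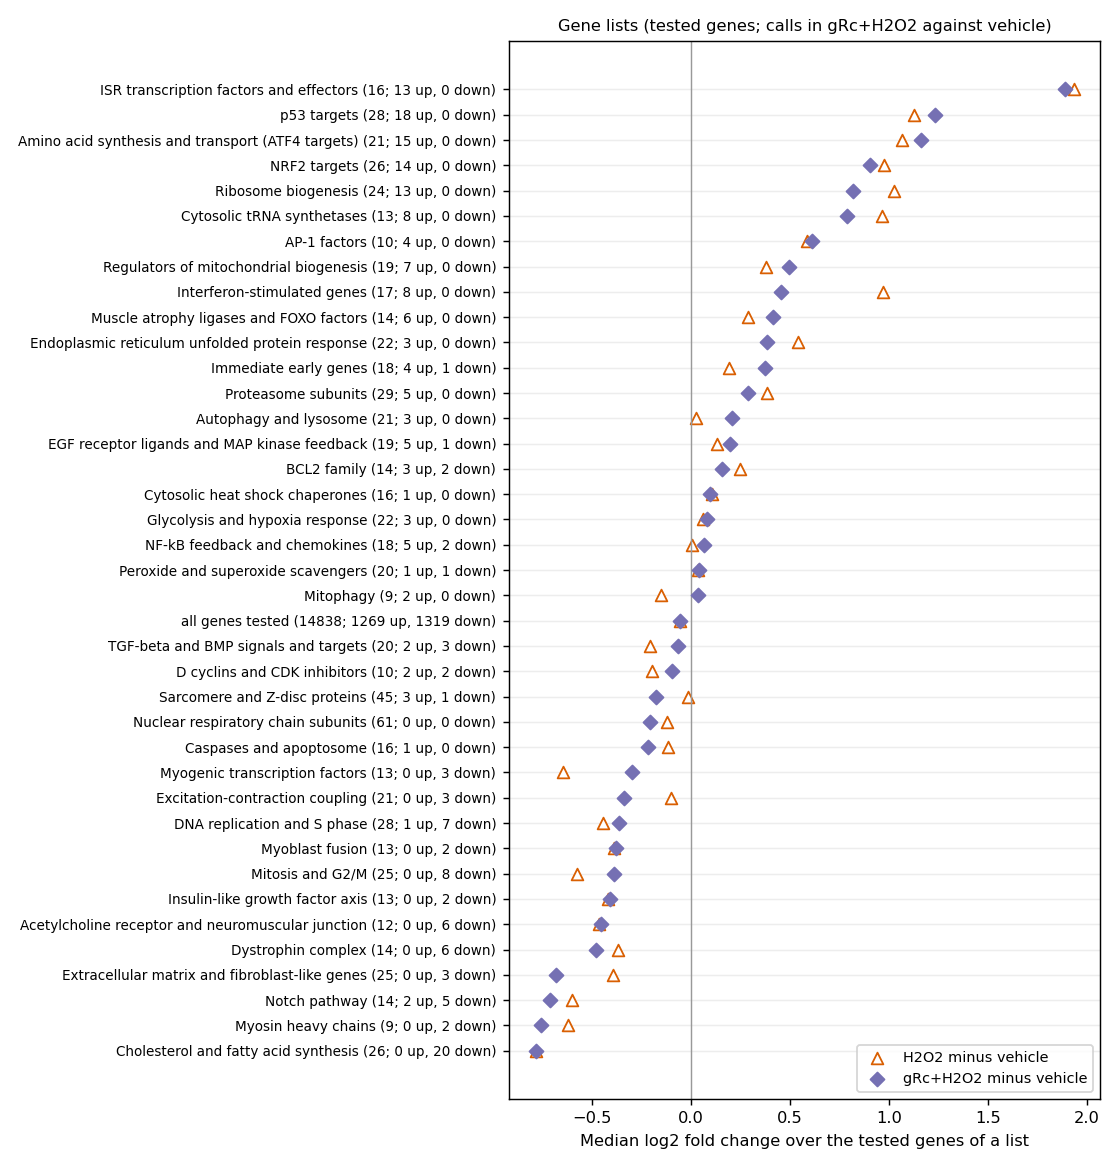
Median log2 fold change over the tested genes of each list with at least 9 of them, mitochondrial mRNAs left out, for gRc+H2O2 against vehicle (diamonds) and H2O2 against vehicle (open triangles); the label gives the number tested and the calls in gRc+H2O2. ISR genes head the plot at 1.89 and cholesterol and fatty acid genes close it at -0.78, with all genes tested at -0.05.

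Cholesterol and fatty acid synthesis was the list with the most falls. These enzymes are switched on by SREBP transcription factors when membrane sterol is low. Of 26 genes tested, 20 fell and 0 rose, with a median of -0.78, where 8.89% of all genes fell. In 24 of the 26 every gRc+H2O2 library lay below every vehicle library, against 17.2% of all genes. The count was 13 without any 1 of the gRc+H2O2 libraries, 16 without vehicle replicate 1 or 2 and 20 without vehicle replicate 3.

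Lss, lanosterol synthase, stood at 123, 86.1 and 84.9 CPM with vehicle and at 34, 31.8 and 33.2 CPM with gRc+H2O2, and fell by 1.57 on the log2 scale (adjusted p = 0.000172, SE 0.16), or 2.97-fold. Cyp51, which removes a methyl group from lanosterol, fell from 265, 174 and 188 to 102, 94.7 and 87.2 CPM, by 1.14 (adjusted p = 0.00143, SE 0.17). Insig1, the feedback protein that retains the SREBP complex, fell from 163, 119.7 and 118 to 63.9, 65.1 and 67.8 CPM, by 1.03 (adjusted p = 0.000945, SE 0.14). In all 3 the vehicle libraries were highest in replicate 1 and none overlapped with gRc+H2O2. The sterol carrier Stard4 fell by 1.16 (adjusted p = 0.00135, SE 0.17). The letters TCACNCCAC or GTGGNGTGA, a form of the sterol regulatory element, were found in 1 of 20 windows of the 16 genes of this list with a promoter sequence, that of Hmgcs1, and in 1.05% of all windows.

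Other metabolic genes were less changed. Of 22 glycolysis and hypoxia genes 3 rose and 0 fell (median 0.08). These were Slc2a1, the glucose carrier GLUT1, from 52.2, 57.1 and 56.6 to 157, 188 and 206 CPM (1.73, SE 0.14, adjusted p = 4.89e-05), the vessel growth factor Vegfa (1.56, SE 0.13, adjusted p = 5.20e-05) and hexokinase 2, Hk2 (1.5, SE 0.28, adjusted p = 0.00473). All 3 kept their call whichever library was left out. Of 21 autophagy and lysosome genes 3 rose (median 0.21), Sqstm1, Ulk1 (0.58, SE 0.17) and Atg12 (0.94, SE 0.25). The Ulk1 call was lost without vehicle replicate 2 or 3 or gRc+H2O2 replicate 1, 2 or 3 (adjusted p of 0.0642 to 0.155) and the Atg12 call without gRc+H2O2 replicate 1, 2 or 3 (adjusted p of 0.0672 to 0.0805), so the list had 1 rise without any 1 of the gRc+H2O2 libraries.

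Some genes of the muscle programs were lower, where 8.89% of all genes fell. Of 13 myogenic transcription factors 3 fell and 0 rose (median -0.30). Among them, Myf6, the MyoD relative of late differentiation, fell by 1.52 (adjusted p = 0.00531, SE 0.29) and the stem cell factor Pax7 from 15, 20.3 and 23.6 to 9.57, 10.1 and 7.39 CPM, by 1.12 (adjusted p = 0.0060, SE 0.22). Myod1 stood at 209, 201 and 161 CPM with vehicle and 141, 131 and 141 CPM with gRc+H2O2, which did not overlap, and its log2 fold change of -0.47 (SE 0.16) missed the threshold at adjusted p = 0.0644. In RNA from whole cultures, fewer cells of a type and less RNA per cell cannot be told apart.

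Myosin heavy chain genes were below vehicle in fitted value in 9 of 9 cases, and 2 passed the test. Myh1, a fast adult chain, stood at 3123, 2638 and 1705 CPM with vehicle and 1149, 1113 and 1595 CPM with gRc+H2O2, and fell by 0.95 (adjusted p = 0.0275, SE 0.26). Myh4, the fastest chain, fell from 343, 327 and 241 to 169.5, 165 and 224 CPM, by 0.7 (adjusted p = 0.0247, SE 0.18). In both, vehicle replicate 3 was the lowest of its group and gRc+H2O2 replicate 3 the highest. Myh3 differed by -0.76 (adjusted p = 0.122, SE 0.31) and its groups overlapped. In CPM, Myh2 did not overlap between groups and Myh7b and Myh6 did, with log2 fold changes of -0.86, -1.31 and -0.63 and adjusted p of 0.0536, 0.0628 and 0.0846. Myh13, under 1 CPM in every library, also had its gRc+H2O2 values below those of vehicle (log2 fold change -1.04, adjusted p = 0.172). The Myh1 call was lost without vehicle replicate 1 or 2 or gRc+H2O2 replicate 1 or 2 (adjusted p of 0.0675 to 0.113) and the Myh4 call without vehicle replicate 1 or 2 or gRc+H2O2 replicate 1 or 2 (adjusted p of 0.0587 to 0.106). In those fits 0 chains were called, against 7 without vehicle replicate 3 and 3 without gRc+H2O2 replicate 3. On the length-corrected TPM scale the 9 genes summed to 2241 ± 886 TPM with vehicle and 1146 ± 227 TPM with gRc+H2O2 (SD, n = 3 each), of which Myh3 gave 1130 ± 404 and 669 ± 140 TPM.

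Other contractile genes did not move as a block. Of 45 sarcomere and Z-disc genes 3 rose and 1 fell (median -0.18), where 8.55% of all genes rose and 8.89% fell. Lmod2, which lengthens thin filaments, rose from 114, 167 and 161 to 239, 265 and 272 CPM, by 0.81 (adjusted p = 0.00941, SE 0.17), and the actin-binding genes Xirp2 and Nrap rose by 1.04 (adjusted p = 0.033) and 0.63 (adjusted p = 0.0257). Actc1, cardiac actin, fell by 0.46 (adjusted p = 0.0386, SE 0.14). Calls were lost without vehicle replicate 1 or 2 or gRc+H2O2 replicate 1, 2 or 3 (adjusted p of 0.051 to 0.0996) for Xirp2, without vehicle replicate 1 or 3 or gRc+H2O2 replicate 2 or 3 (adjusted p of 0.0529 to 0.117) for Nrap and without vehicle replicate 1 or 2 or gRc+H2O2 replicate 1, 2 or 3 (adjusted p of 0.0534 to 0.134) for Actc1. The list had up to 4 falls with 1 library left out. Of 21 excitation-contraction coupling genes 3 fell, led by the calcium release channel Ryr3, from 38.1, 28.8 and 25.1 to 10.6, 9.72 and 9.69 CPM (-1.62, SE 0.18, adjusted p = 0.000274), and of 13 fusion genes 2 fell, Dysf (-0.72, SE 0.17) and Kirrel (-0.54, SE 0.13). The medians of these lists were -0.34 and -0.38. Counts this small were not tested against the 8.89% of all genes that fell. The Dysf call was lost without gRc+H2O2 replicate 1 or 2 (adjusted p of 0.0687 to 0.0738) and the Kirrel call without gRc+H2O2 replicate 2 or 3 (adjusted p of 0.0588 to 0.0633). Without gRc+H2O2 replicate 1, 2 or 3 the coupling list had 1 fall, and without vehicle replicate 3 both lists had 5.

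Some dystrophin complex and nerve contact genes fell. Of 14 dystrophin complex genes 6 fell and 0 rose (median -0.48). Dmd, dystrophin itself, stood at 10.9, 14.9 and 11.9 CPM with vehicle and 5.37, 4.83 and 4.04 CPM with gRc+H2O2, and fell by 1.4 (adjusted p = 0.00088, SE 0.19). Lama2, the laminin chain of the muscle basement membrane, fell from 98.6, 84.5 and 79.8 to 47.8, 45.6 and 44.9 CPM, by 0.93 (adjusted p = 0.00138, SE 0.14), and Sntb1, a syntrophin, by 0.77 (adjusted p = 0.00404, SE 0.14). These 3 genes stayed apart between groups in every library, and each gRc+H2O2 fit that left out a library of that group called 3 of the 14. Without vehicle replicate 1, 2 or 3 the list had 6, 4 and 7 falls. Dmd lost its call on log2 TPM with limma, at adjusted p = 0.20. Of 12 acetylcholine receptor and neuromuscular junction genes 6 fell and 0 rose (median -0.46). Lrp4, the agrin receptor of muscle, fell from 392, 305 and 235 to 137, 129 and 154 CPM, by 1.15 (adjusted p = 0.00252, SE 0.19), and Ache, acetylcholinesterase, by 0.88 (adjusted p = 0.0112, SE 0.19). Counts in this list were 2, 2 and 3 without gRc+H2O2 replicate 1, 2 and 3, and 5, 4 and 4 without the vehicle replicates in the same order. Its median was -0.31 without vehicle replicates 1 and 3 and gRc replicate 3 together.

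Atrophy genes were raised in some members, and the 2 muscle ubiquitin ligases differed. Of 14 genes 6 rose and 0 fell (median 0.41). Fbxo32, which encodes MAFbx, stood at 81, 94.7 and 76.5 CPM with vehicle and 70.5, 69.9 and 78.3 CPM with gRc+H2O2 (log2 fold change -0.21, adjusted p = 0.297, SE 0.13), and the groups overlapped. Trim63, which encodes MuRF1, rose from 36.9, 33.4 and 31.3 to 44.6, 45.6 and 60.6 CPM, by 0.57 (adjusted p = 0.0361, SE 0.16). The groups did not overlap, but the Trim63 call was lost without vehicle replicate 2 or 3 or gRc+H2O2 replicate 1, 2 or 3 (adjusted p of 0.0707 to 0.18). Klf15, a glucocorticoid-responsive factor, rose from 0.444, 0.622 and 0.606 to 2.27, 2.08 and 2.04 CPM, by 1.91 (adjusted p = 0.00155, SE 0.28). Fbxo30, a ubiquitin ligase gene, rose from 49, 51.4 and 39.7 to 96.5, 92.1 and 95.9 CPM, by 1.02 (adjusted p = 0.00113, SE 0.14). The list had 4, 2 and 2 rises without gRc+H2O2 replicate 1, 2 and 3, and 6, 5 and 4 without the vehicle replicates.

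Igf1, the insulin-like growth factor, stood at 20.2, 22.6 and 26.7 CPM with vehicle and 6.14, 6.91 and 5.85 CPM with gRc+H2O2, and fell by 1.88 (adjusted p = 0.000172, SE 0.19), or 3.68-fold. Its receptor gene Igf1r fell by 0.58 (adjusted p = 0.0165, SE 0.14), a call lost without gRc+H2O2 replicate 1 or 2 (adjusted p of 0.0575 to 0.0591). Of 13 genes of the axis these 2 fell and 0 rose (median -0.41; 4 falls without vehicle replicate 3), and on log2 TPM with limma Igf1 had an adjusted p of 0.315. Of 14 Notch pathway genes 5 fell and 2 rose (median -0.71). The Notch target Heyl fell from 27.9, 34.3 and 46.9 to 7.4, 8.49 and 6.6 CPM, by 2.28 (adjusted p = 0.000496, SE 0.28), and the ligand Dll1 from 50.2, 27.6 and 22.7 to 8.2, 7.92 and 7.85 CPM, by 2.06 (adjusted p = 0.000986, SE 0.28), while the ligand Jag1 rose by 0.9 (adjusted p = 0.00243, SE 0.14) and the Notch-bound factor Rbpj by 1.16 (adjusted p = 0.0104, SE 0.25). The ligands thus lay on both sides of vehicle. Falls in the Notch list numbered 3, 3 and 4 without gRc+H2O2 replicate 1, 2 and 3. Of 20 TGF-beta and BMP genes 2 rose and 3 fell (median -0.07; 1 fall without any 1 of the gRc+H2O2 libraries), and Id3, a BMP target that blocks myogenic factors, fell from 16, 10.1 and 12.3 to 3.57, 2.78 and 2.53 CPM, by 2.11 (adjusted p = 0.000327, SE 0.24).

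**Figure D4:**
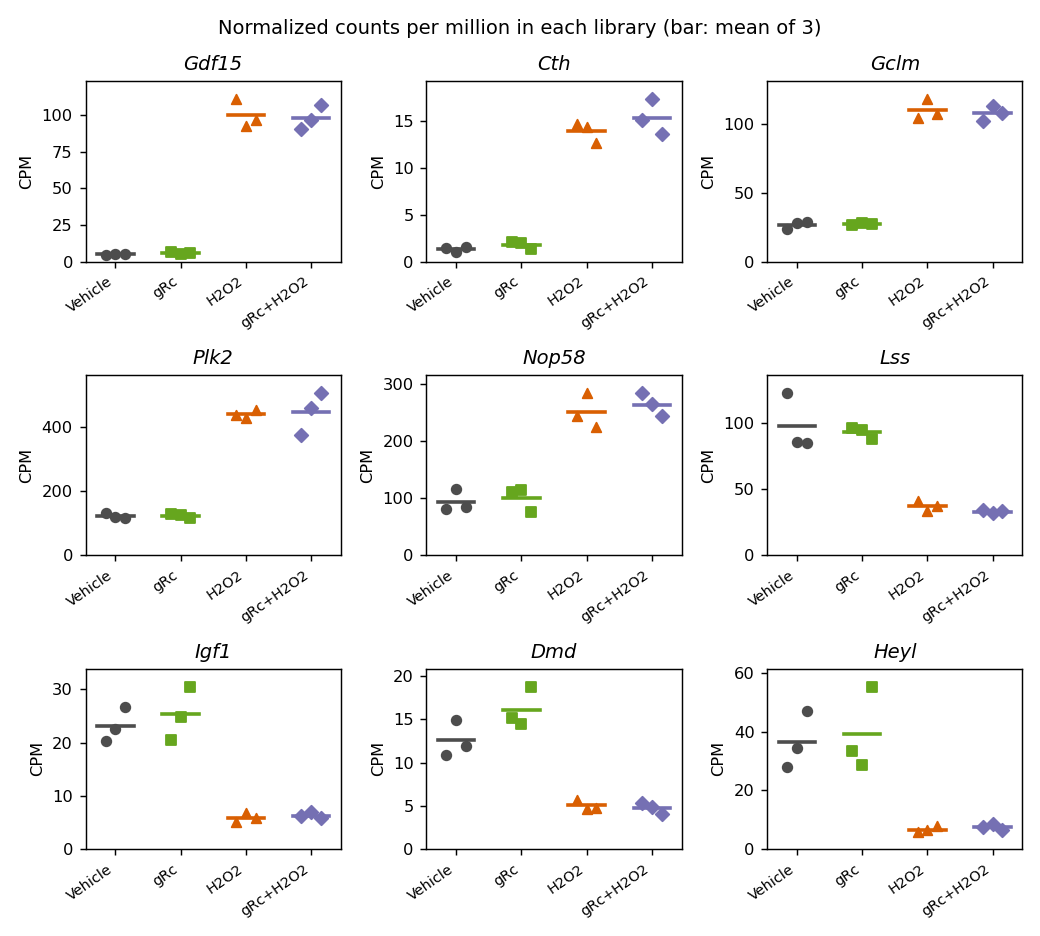
CPM of 9 genes in each of the 12 libraries, with a bar at the mean of the 3 libraries of a group and linear axes from 0. Gdf15, Cth, Gclm, Plk2 and Nop58 are higher and Lss, Igf1, Dmd and Heyl lower in each gRc+H2O2 library than in each vehicle library, and the H2O2 libraries lie at similar heights to gRc+H2O2.

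Cell cycle genes were lower in part. Of 28 S-phase genes 7 fell and 1 rose (median -0.36), and of 25 mitosis genes 8 fell and 0 rose (median -0.39). Ccne1, cyclin E1, fell from 11.2, 7.54 and 10 to 3.53, 3.09 and 3.09 CPM, by 1.56 (adjusted p = 0.000379, SE 0.18), and Ccna2, cyclin A2, from 62.1, 52.2 and 50.5 to 33.8, 30.6 and 24.9 CPM, by 0.88 (adjusted p = 0.00258, SE 0.14). Neither gene overlapped between groups. The proliferation marker Mki67 stood at 35.3, 78.5 and 96.1 CPM with vehicle and 57.5, 63.1 and 42.7 CPM with gRc+H2O2 (adjusted p = 0.512). Falls in the mitosis list numbered 2, 2 and 3 without gRc+H2O2 replicate 1, 2 and 3 and 8, 5 and 6 without vehicle replicate 1, 2 and 3. The S-phase list had 3 falls without any gRc+H2O2 library or vehicle replicate 2, 7 without vehicle replicate 1 and 8 without vehicle replicate 3. Of the D cyclins, Ccnd2 and Ccnd1 rose by 1.1 (adjusted p = 0.0056) and 0.71 (adjusted p = 0.0103) and Ccnd3, the one tied to differentiated muscle, fell by 1.18 (adjusted p = 0.0206, SE 0.3), a call lost without gRc+H2O2 replicate 1, 2 or 3 (adjusted p of 0.0592 to 0.0728). Reserve cell markers were lower in 4 of 7 (median -0.66), and their summed level was 292 to 473 CPM with vehicle and 215 to 224 CPM with gRc+H2O2. In the extracellular matrix list 3 of 25 fell and 0 rose, where 8.89% of all genes fell. The median of this list was -0.68, and its count of falls rose to 12 without vehicle replicate 3. Pdgfrb, a receptor of mesenchymal cells, fell from 262, 262 and 294 to 131, 127 and 109 CPM, by 1.15 (adjusted p = 0.000319, SE 0.13). Whether changes in the makeup of the cultures took part in these values was not tested.

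Mitochondrial transcripts split by kind. The 2 mitochondrial rRNAs took 0.0427%, 0.133% and 0.222% of counts in the vehicle libraries and 2.13%, 2.75% and 1.56% in the gRc+H2O2 libraries (exact permutation p = 0.1, two-sided, the smallest 3 against 3 libraries can give). Each gRc+H2O2 library exceeded each vehicle library. mt-Rnr1 rose by 4.99 (adjusted p = 0.00596, SE 0.96) and mt-Rnr2 by 3.66 (adjusted p = 0.00313, SE 0.62). The libraries were made from poly(A)-selected RNA. The 13 mitochondrial mRNAs took 0.0576%, 0.624% and 4.30% of counts with vehicle and 0.254%, 0.401% and 0.119% with gRc+H2O2 (exact permutation p = 0.4, two-sided). The vehicle values enclose those of gRc+H2O2, and the Wilson 95% intervals reached at most 0.0077 percentage points to either side, covering counting error only. Their median log2 fold change of -2.66 came to -0.53 at its nearest to 0 when 1 library was left out. mt-Nd6 was the 1 member called, at 71.5, 292 and 580.2 CPM with vehicle and 59.2, 63.2 and 26.9 CPM with gRc+H2O2 (-2.66, SE 0.74, adjusted p = 0.032), and it lost the call without vehicle replicate 2 or 3 or gRc+H2O2 replicate 1, 2 or 3 (adjusted p of 0.0544 to 0.111).

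**Figure D5:**
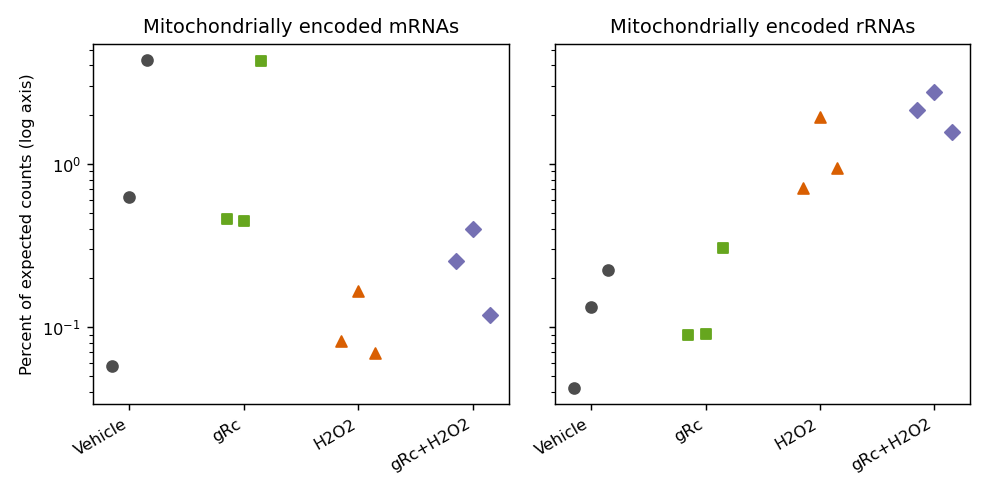
Percent of expected counts from the 13 mitochondrial mRNAs (left) and the 2 mitochondrial rRNAs (right) in each of the 12 libraries, on a log axis; each point is a library. The vehicle libraries span 0.0576% to 4.30% for mRNAs, and every gRc+H2O2 library lies above every vehicle library for rRNAs.

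Among nuclear genes of mitochondria some regulators rose, and 0 subunits were called. Of 61 nuclear respiratory chain subunits 0 rose and 0 fell by edgeR at the adjusted threshold (median -0.21). Of 19 regulators of mitochondrial biogenesis 7 rose and 0 fell (median 0.50; 5 to 8 rises with 1 library left out), and 14 had a fitted value above vehicle. The median of the regulators was 0.32 with a GC correction, with 5 rises, and 0.28 without vehicle replicate 1. Nrf1, nuclear respiratory factor 1, stood at 16.4, 20.6 and 18.2 CPM with vehicle and 30.4, 29.7 and 30.8 CPM with gRc+H2O2, and rose by 0.72 (adjusted p = 0.00576, SE 0.14). Twnk, the mitochondrial DNA helicase, rose from 20.5, 31.3 and 21.9 to 61.3, 60.2 and 65.9 CPM, by 1.35 (adjusted p = 0.000926, SE 0.18), and Tfam, the packaging and transcription factor of mitochondrial DNA, by 0.66 (adjusted p = 0.0153, SE 0.16), a call lost without gRc+H2O2 replicate 1 or 3 (adjusted p of 0.0703 to 0.0747). Ppargc1a, which encodes the coactivator PGC-1α, was low, at 0.388, 0.934 and 1.43 CPM with vehicle and 0.40, 0.473 and 0.528 CPM with gRc+H2O2 (log2 fold change -0.99, adjusted p = 0.149, SE 0.44). Its highest value was vehicle replicate 3 and its lowest vehicle replicate 1, so the groups overlapped. Its relative Pprc1 rose by 0.77 (adjusted p = 0.00258, SE 0.13). Of 9 mitophagy genes 2 rose, Sqstm1 and Bnip3 (0.62, SE 0.15, adjusted p = 0.0188), the latter lost without gRc+H2O2 replicate 2 or 3 (adjusted p of 0.0693 to 0.0737).

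Some calls given above also changed with the test or with the libraries fitted. Of the 182 called genes named by the rule, 71 lost their call with only vehicle and gRc+H2O2 libraries in the fit. With limma on log2 TPM 53 lost it, and with a GC correction 8. The genes listed next are only a part of these. Calls lost on log2 TPM with limma included those of Aldh18a1, Ccnd1, Nrf1, Pax7, Pprc1, Psmd11 and Rbpj (adjusted p of 0.0561 to 0.0994 for these genes). Calls lost with only vehicle and gRc+H2O2 libraries in the fit included those of Apaf1, Ccnd1, Ccnd2, Egr2, Ifit1, Rbpj and Slc30a1 (adjusted p of 0.0521 to 0.0697). Those of Ache and Lmod2 were lost there too (adjusted p of 0.0573 to 0.0724). Fbxo30 was 1 of the 8 genes that lost their call with a GC correction (adjusted p = 0.0645). Without vehicle replicates 1 and 3 and gRc replicate 3, which leaves 1 vehicle library, the log2 fold changes of Nrap, Atg12 and Ccnd3 came to 0.37, 0.5 and -0.54.

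H2O2 without gRc was set beside these values to see whether pretreatment left the cells at another distance from vehicle. Against the same vehicle libraries H2O2 alone changed 2323 genes (15.7%), 1159 up (7.81%) and 1164 down (7.84%), and 1062 (7.16%) at least 2-fold. Without H2O2 replicate 1, 2 or 3 it changed 1412, 1353 and 1267 genes. The group mean of gRc+H2O2 lay 0.687 from that of vehicle, in root mean square log2 units, and that of H2O2 lay 0.668. The means of gRc+H2O2 and H2O2 were 0.378 apart and those of gRc alone and vehicle 0.275. These distances include the spread of libraries. Directly between gRc+H2O2 and H2O2, edgeR called 0 genes (122 genes, 0.822%, at an unadjusted p under 0.05; smallest adjusted p = 0.922) and DESeq2 called 2. The effect of gRc under H2O2 less its effect without H2O2 gave 0 calls by edgeR (87 genes, 0.586%, at an unadjusted p under 0.05) and 1 by DESeq2, and gRc alone against vehicle gave 0 by edgeR (74 genes, 0.499%, unadjusted).

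A call that is missing does not show that the groups were alike, so intervals are given. Over the 2588 genes that differed from vehicle, the 95% interval of the log2 difference between gRc+H2O2 and H2O2 reached a median of 0.42 to either side. For Gdf15 the difference was -0.03 (95% interval -0.32 to 0.26), beside a distance of 4.33 between H2O2 and vehicle. Atf3 differed by 0.01 (95% interval -0.38 to 0.41) beside 3.92, and Cth by 0.14 (95% interval -0.3 to 0.59) beside 3.34. For these stress genes the intervals were narrow against the distance from vehicle. Gclm differed by -0.03 (95% interval -0.28 to 0.22) beside 2.03, Lss by -0.17 (95% interval -0.51 to 0.16) beside -1.39 and Igf1 by 0.09 (95% interval -0.32 to 0.5) beside -1.97. Intervals were wider against their distances in the muscle and mitochondrial genes. Myh1 differed by -0.2 (95% interval -0.75 to 0.36) beside -0.76 and Trim63 by -0.03 (95% interval -0.38 to 0.33) beside 0.6. Ppargc1a differed by 0.01 (95% interval -1.04 to 1.05) beside -1.0 and mt-Rnr1 by 0.98 (95% interval -0.83 to 2.79) beside 4.01.

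List medians against vehicle are given side by side, both resting on the same vehicle libraries. They were 1.89 with gRc+H2O2 and 1.93 with H2O2 for the ISR, 1.23 and 1.13 for p53 targets, 0.90 and 0.97 for NRF2 targets and -0.78 and -0.79 for cholesterol and fatty acid genes. Interferon-stimulated genes had 0.46 and 0.97, mitochondrial rRNAs 4.33 and 3.49 and mitochondrial mRNAs -2.66 and -3.88. The gRc+H2O2 median of the interferon list was 0.73 without vehicle replicate 1, 0.70 without gRc+H2O2 replicate 2 and 0.95 without vehicle replicates 1 and 3 and gRc replicate 3. None of the lists held a gene that edgeR called between gRc+H2O2 and H2O2.

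Of the genes away from vehicle whose mean log2 CPM was 2 or more, the 4 with the smallest unadjusted p between gRc+H2O2 and H2O2 are described without a test, having been chosen on it. Differences of genes chosen in this way can be too large, so no intervals are given. Dhrs3, a retinal reductase, stood at 17.8, 15.9 and 16 CPM with vehicle, 6.76, 6.17 and 5.75 CPM with H2O2 and 10.1, 10.2 and 7.28 CPM with gRc+H2O2. For this gene gRc+H2O2 lay 0.56 from H2O2 on the log2 scale, on the side of vehicle. The other 3 lay farther from vehicle with gRc+H2O2 than with H2O2. Cmklr1, the chemerin receptor, stood at 78.5, 53.2 and 50.3 CPM with vehicle, 28.2, 19.6 and 24.8 CPM with H2O2 and 17.3, 16.5 and 16.9 CPM with gRc+H2O2, a difference of -0.52. For Slc31a2, a copper carrier, the difference was -0.46, and for Hhat, the acyltransferase of Hedgehog proteins, -0.51. None of the 4 passed the adjusted threshold between gRc+H2O2 and H2O2, where the smallest adjusted p of any gene by edgeR was 0.922.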

How the data were processed

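RNA of C2C12 myotubes was sequenced in 12 libraries, 3 each of vehicle, gRc, H2O2 and gRc+H2O2. Per the labels and the submitters' processing notes, poly(A) RNA was made into directional libraries and read as 100-base pairs on an MGI sequencer, reads were checked with FastQC, trimmed with Trim Galore, aligned with STAR 2.7.3a to GRCm38 (mm10) and quantified with RSEM 1.3.3. The authors deposited expected counts, which are not normalized, and TPM, scaled within a library by RSEM. Whether RSEM counted by strand is not given in the sources used here, so overlapping and antisense genes are uncertain. FPKM values were not used. Some genes of the lists are counted but not reported here by name.

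Of 48795 genes in the files, 48349 matched a symbol. After rounding of the expected counts, filterByExpr left 14838 genes. edgeR 4.0.16 in R 4.3.3 fitted the 12 libraries together with TMM factors, tested by quasi-likelihood (biological coefficient of variation 0.295), and p-values were adjusted by the Benjamini-Hochberg method over all genes tested. An adjusted p under 0.05 counts as called. SE were derived from the fold change and its F statistic (absolute log2 value over root F). Library totals ran from 19274762 to 31409066, and no library duplicated another. The scripts were tested on simulated data. The promoter windows are the 250 bases before each RefSeq start.

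Comparisons, 46 gene lists and members were chosen with earlier results of these data known. Genes named are those of proteins central to the study, the 8 largest rises and 8 largest falls without overlap of groups and whose mean log2 CPM was 2 or more, up to 6 members per list by smallest p, 4 genes by smallest p against H2O2, and cell type markers. Alternatives were DESeq2 1.42.0, other size factors, other filters, a fit of the compared groups alone, a replicate block, limma 3.58.1 on log2(TPM + 0.5), mitochondrial genes left out, a GC correction, and leaving out libraries.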

Additional observations from a re-analysis of the deposited data

How the results depend on the processing

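The count of 2588 genes that differed between gRc+H2O2 and vehicle became 992 (485 up, 507 down) when the compared groups were fitted alone and 1568 (819 up, 749 down) with limma on log2(TPM + 0.5), and the 1108 genes changed at least 2-fold became 681 and 622. For H2O2 against vehicle, 2323 became 739 and 1492. DESeq2 called 2 genes between gRc+H2O2 and H2O2 and 1 for the interaction. With 1 library left out, 1294 to 2865 genes differed from vehicle, 642 to 1230 risen and 652 to 1635 fallen, 781 to 1489 at least 2-fold, and 1267 to 3108 for H2O2, where the leaving out of H2O2 libraries was chosen after seeing the data. Same-numbered vehicle and gRc+H2O2 libraries did not deviate together from their group means (correlations of -0.03, -0.04 and -0.55). Correlations were 0.08, 0.40 and 0.31 for H2O2 and gRc+H2O2 and 0.46, 0.27 and 0.86 for vehicle and gRc, and in none of these 3 pairs of groups did every library correlate best with its own number. With the replicate number as a block 2655 genes (1357 up, 1298 down) were called, 2305 for H2O2 against vehicle and 0 for gRc against vehicle. A GC correction gave 2785 (1261 up, 1524 down). Of 182 called genes named by the rule, 182 kept their direction and 95 their call in every alternative that tested them. These alternatives include the fit without vehicle replicates 1 and 3 and gRc replicate 3, which has 1 vehicle library. That fit was also chosen after seeing the data. The cause of these shifts was not tested. With 3 libraries a group, changes smaller than the spread between libraries could not be detected.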
